A study of Mus musculus with 2 samples.

Results

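The Bcl2a1 paralogs Bcl2a1a, Bcl2a1b and Bcl2a1d were examined together with Mcl1, Bcl2l11 and Bax, 6 genes of the BCL2 family out of the 27998 genes counted in single cells of mouse alveolar bone. The set was chosen on the higher level of Bcl2a1b in the library from orthodontic tooth movement (OTM) than in the control library, so that difference is given as a description and supports nothing. The cells came from 8-week-old C57/B6 J male mice and were sorted as F4/80+CD11b+ after digestion with collagenase. The labels call the libraries control and case, the latter being the OTM group, in which a NiTi coil spring pulled the left maxillary first molar forward for a week. Each condition was 1 library of droplet RNA sequencing, and no test between conditions could be made. The methods give how many mice were divided over the groups, but not how many went into a library. All intervals below are 95% intervals for counting error alone, and they do not cover the spread between mice.

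Proteins of the BCL2 family decide whether the outer membrane of the mitochondrion is opened, the step that commits a cell to apoptosis. A1, the product of the Bcl2a1 genes, and MCL1 are short-lived anti-apoptotic proteins that myeloid cells depend on, BIM, encoded by Bcl2l11, is a BH3-only protein that antagonizes them, and BAX is an effector that forms the pore. Neutrophils are short-lived cells in which A1 and MCL1 are known to delay death, and A1 is a known target of NF-kB.

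The 3 Bcl2a1 genes are near-identical copies on chromosome 9, so their sequences are shown first, because they set how far the counts of each gene can be told apart. Bcl2a1d (ENSMUSG00000099974) lies at chr9:88723285-88731914 on the minus strand of GRCm38, Bcl2a1a (ENSMUSG00000102037) at chr9:88956900-88962419 and Bcl2a1b (ENSMUSG00000089929) at chr9:89199209-89207827, both on the plus strand. Their coding sequences have 516 bases in 2 exons, and the 3 are not alike at 12 of these positions, 11 in exon 1 and 1 in exon 2. Bcl2a1a and Bcl2a1b differ at 11 positions, Bcl2a1a and Bcl2a1d at 7, and Bcl2a1b and Bcl2a1d at 6. The first 150 coding bases, in exon 1, hold 7 of the 12 positions, which are in capitals (chr9:88957051-88957200, chr9:89199360-89199509 and, on the minus strand, chr9:88731570-88731719).
Bcl2a1a: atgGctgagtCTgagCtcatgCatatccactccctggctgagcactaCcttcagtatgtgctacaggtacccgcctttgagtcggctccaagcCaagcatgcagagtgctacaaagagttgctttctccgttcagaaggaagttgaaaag
Bcl2a1b: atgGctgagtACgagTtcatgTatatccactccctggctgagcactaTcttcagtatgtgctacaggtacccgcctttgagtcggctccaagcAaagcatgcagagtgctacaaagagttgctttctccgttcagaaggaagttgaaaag
Bcl2a1d: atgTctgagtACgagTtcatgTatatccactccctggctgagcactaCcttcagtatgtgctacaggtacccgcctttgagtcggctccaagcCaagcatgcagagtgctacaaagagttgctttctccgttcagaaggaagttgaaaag
The coding part of exon 2, nearer to the 3' end that the assay reads, is alike but for 1 base, in capitals (chr9:88962172-88962267, chr9:89207582-89207677 and, on the minus strand, chr9:88723437-88723532).
Bcl2a1a: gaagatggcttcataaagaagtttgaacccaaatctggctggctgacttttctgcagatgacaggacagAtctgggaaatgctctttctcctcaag
Bcl2a1b: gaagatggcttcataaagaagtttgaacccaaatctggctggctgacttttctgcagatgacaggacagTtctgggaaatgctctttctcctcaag
Bcl2a1d: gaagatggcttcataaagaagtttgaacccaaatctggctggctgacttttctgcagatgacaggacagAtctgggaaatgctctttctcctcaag
Of all stretches of 100 bases in exon 2, untranslated part included, 59.1% of those of Bcl2a1a, 47.6% of those of Bcl2a1b and 7.38% of those of Bcl2a1d occurred in neither other transcript. A read that matches more than 1 gene is not counted, so the level of 1 paralog cannot be set against that of another, while each paralog can be compared between cell groups and between libraries. A further copy, Bcl2a1c, had 6 UMIs in the control and 11 in the OTM library, and Gm29094, which shares exon 1 with Bcl2a1b, had 1 and 0.

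Upstream of their annotated starts the paralogs are also close to identical, and this stretch is shown because the copies moved together in some cell groups and apart in others. In the aligned sequences, from the RefSeq promoter table (GRCm38.p6), capitals mark the positions at which the 3 are not alike (chr9:88956714-88956855, chr9:89199023-89199164 and, on the minus strand, chr9:88731915-88732050).
Bcl2a1a: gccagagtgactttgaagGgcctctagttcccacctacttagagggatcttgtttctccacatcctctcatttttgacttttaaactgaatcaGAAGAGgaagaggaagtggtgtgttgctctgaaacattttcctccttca
Bcl2a1b: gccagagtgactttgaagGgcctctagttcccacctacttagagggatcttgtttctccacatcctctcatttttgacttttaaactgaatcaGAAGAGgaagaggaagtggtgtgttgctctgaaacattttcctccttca
Bcl2a1d: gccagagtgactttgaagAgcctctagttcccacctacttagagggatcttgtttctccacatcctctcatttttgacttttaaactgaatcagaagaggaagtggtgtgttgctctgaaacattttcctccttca
The stretch has 142 bases in Bcl2a1a and Bcl2a1b, whose letters are identical, and 136 bases in Bcl2a1d. The letters GAGGAAGT, a core that the myeloid factor PU.1 is known to bind, occurred once on the forward strand in the 300-base promoter of each of the 3 paralogs and in 3.20% of all 32851 promoters, searched on both strands. The letters TTGCGCAA (C/EBP) and TGACTCA (AP-1) and the NF-kB consensus were found in no promoter window of the 6 genes, against 0.183%, 5.20% and 8.46% of all promoters. These are matches of letters and say nothing about binding. The search covered the 300-base windows and these patterns alone, so sites further away or with other letters were not looked for.

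The control library held 2863 barcodes with 14620877 unique molecular identifiers (UMIs, each tagging 1 captured RNA molecule) and the OTM library 2058 barcodes with 16500733 UMIs. After filtering, 2835 control and 2052 OTM cells remained, with medians of 3998 and 6862 UMIs, and 6 barcodes occurred in both libraries. Cells of both libraries were clustered together without the BCL2 family genes, and the 17 clusters were named from marker genes, with the suffix -like for a name given in this way. Although the cells are labelled as macrophages, the neutrophil stages held 91 control and 85 OTM cells that were granulocyte progenitor-like, 217 and 195 that were cycling immature neutrophil-like, 232 and 135 of the specific-granule stage, and 676 and 575 that were mature neutrophil-like. Classical monocyte-like cells, 858 control and 608 OTM, were mostly from cluster 0 in the control library (511 cells, led by Cxcl3 and Mt2) and from cluster 7 in the OTM library (312 cells, led by Saa3 and Apoc1). Clusters 9 and 13 carried monocyte and neutrophil genes together and were kept apart as a group of their own, although they count in all cells. Cluster 13 also carried nonclassical monocyte markers, with 4 of them (Fabp4, Eno3, Ace and Treml4) among its 10 leading genes. Of the cells of clusters 9 and 13, 85 of 171 OTM cells and 2 of 230 control cells were called as doublets. Among cycling immature neutrophil-like cells, 28 of 195 OTM and 1 of 217 control cells were called. Doublets were called in each library alone, so these numbers do not measure a difference between the libraries. Levels are given as CPM, a gene's UMIs in a group per 1000000 UMIs of that group.

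Bcl2a1b, the copy on which the set was chosen, was at 262 CPM (253 to 270) in all control cells and at 393 CPM (383 to 402) in all OTM cells. Along the neutrophil stages of the control library it stood at 79.1 CPM in granulocyte progenitor-like, 163 CPM in cycling immature neutrophil-like, 240 CPM in specific-granule stage and 473 CPM in mature neutrophil-like cells. In the OTM library the same stages had 128, 213, 374 and 665 CPM. Each stage was above the one before it in both libraries, with intervals that did not overlap. Among monocytes and macrophages, the control levels were 50.4 CPM in cycling monocyte-like, 156 CPM in classical monocyte-like, 634 CPM in MHC class II-high and resident macrophage-like and 752 CPM in nonclassical monocyte-like cells. The OTM levels of these groups were 153, 365, 557 and 968 CPM. In the order of control levels, classical monocyte-like (144 to 170) and cycling immature neutrophil-like cells (146 to 181) did not differ beyond counting error, nor did the MHC class II-high (590 to 681) and the nonclassical monocyte-like cells (628 to 895). In the order of OTM levels this held for granulocyte progenitor-like (108 to 150) and cycling monocyte-like cells (135 to 173), and for classical monocyte-like (347 to 383) and specific-granule stage cells (336 to 415).

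**Figure D1:**
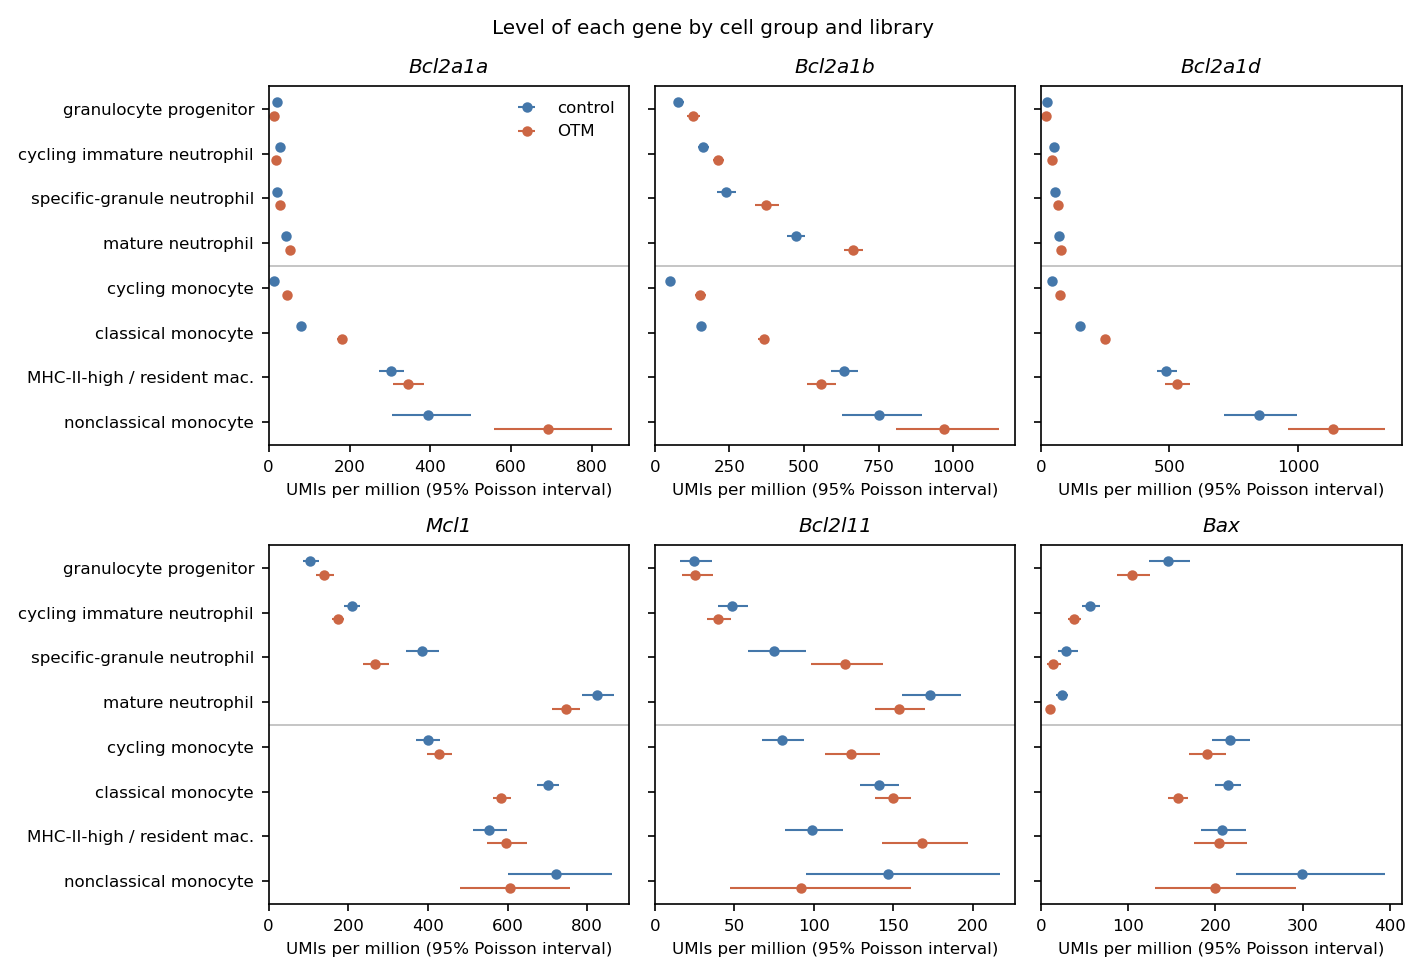
Level of each of the 6 genes, in CPM with 95% Poisson intervals (x axis, a scale of its own in each panel), in 8 cell groups (y axis) of the control (blue) and the OTM library (orange), with -like left out of the names. Among the neutrophil stages, Bcl2a1b, Mcl1 and Bcl2l11 were highest in mature cells and Bax in progenitors. Over the 8 groups, Bcl2a1a, Bcl2a1b and Bcl2a1d were each highest in nonclassical monocyte-like cells in both libraries. In the control, the intervals of Bcl2a1a and Bcl2a1b there overlapped those of MHC class II-high and resident macrophage-like cells. Clusters 9 and 13 are not among the 8 groups. Cluster 13, which also carried nonclassical markers, had Bcl2a1b at 920 and 1245 CPM in the control and the OTM library. Its levels of Bcl2a1a were 322 and 436 CPM, and those of Bcl2a1d 633 and 630 CPM.

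Erythroid-like cells, which should lack Bcl2a1b, held 1 UMI of it in each library, equal to 13.1 CPM (0.331 to 72.9) in 11 control cells and 16.9 CPM (0.427 to 93.9) in 5 OTM cells. These few cells leave a wide limit on free RNA. In B cell-like cells Bcl2a1b was at 113 CPM in the control and 146 CPM in the OTM library. The 10% of cells with most of its UMIs, rounded up to whole cells, held 93.5% and 83.3% of them. Among mature neutrophil-like cells that 10% held 42.5% and 39.6%. The B cell-like shares rest on 31 UMIs in 45 cells and 18 UMIs in 15 cells. Such shares also depend on the number of UMIs per cell, so the spread was not compared between these groups.

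Over all cells the log2 ratio of OTM over control was 0.59 (0.53 to 0.64) for Bcl2a1b. This count over all cells was also taken with the share of UMIs of each cluster held as in the control library, which gave a 1.38-fold difference. Within cell groups, Bcl2a1b was 1.62-fold higher in granulocyte progenitor-like (1.23 to 2.14), 1.31-fold in cycling immature neutrophil-like (1.14 to 1.49), 1.56-fold in specific-granule stage (1.31 to 1.85) and 1.41-fold in mature neutrophil-like cells (1.30 to 1.53). The ratio in classical monocyte-like cells was 2.33 (2.12 to 2.57), and in cycling monocyte-like cells it was 3.03 (2.38 to 3.89). In nonclassical monocyte-like cells, of which there were 54 and 29, the ratio of 1.29 had an interval from 0.998 to 1.66. Cluster 13, with nonclassical markers but outside the 8 groups, had a ratio of 1.35 (1.19 to 1.54). Of these 8 groups the MHC class II-high and resident macrophage-like cells alone had a lower level in OTM, by 1.14-fold (1.02 to 1.28), and with TMM scaling, which raises the log2 ratio from -0.19 to -0.06, that difference was within counting error.

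**Figure D2:**
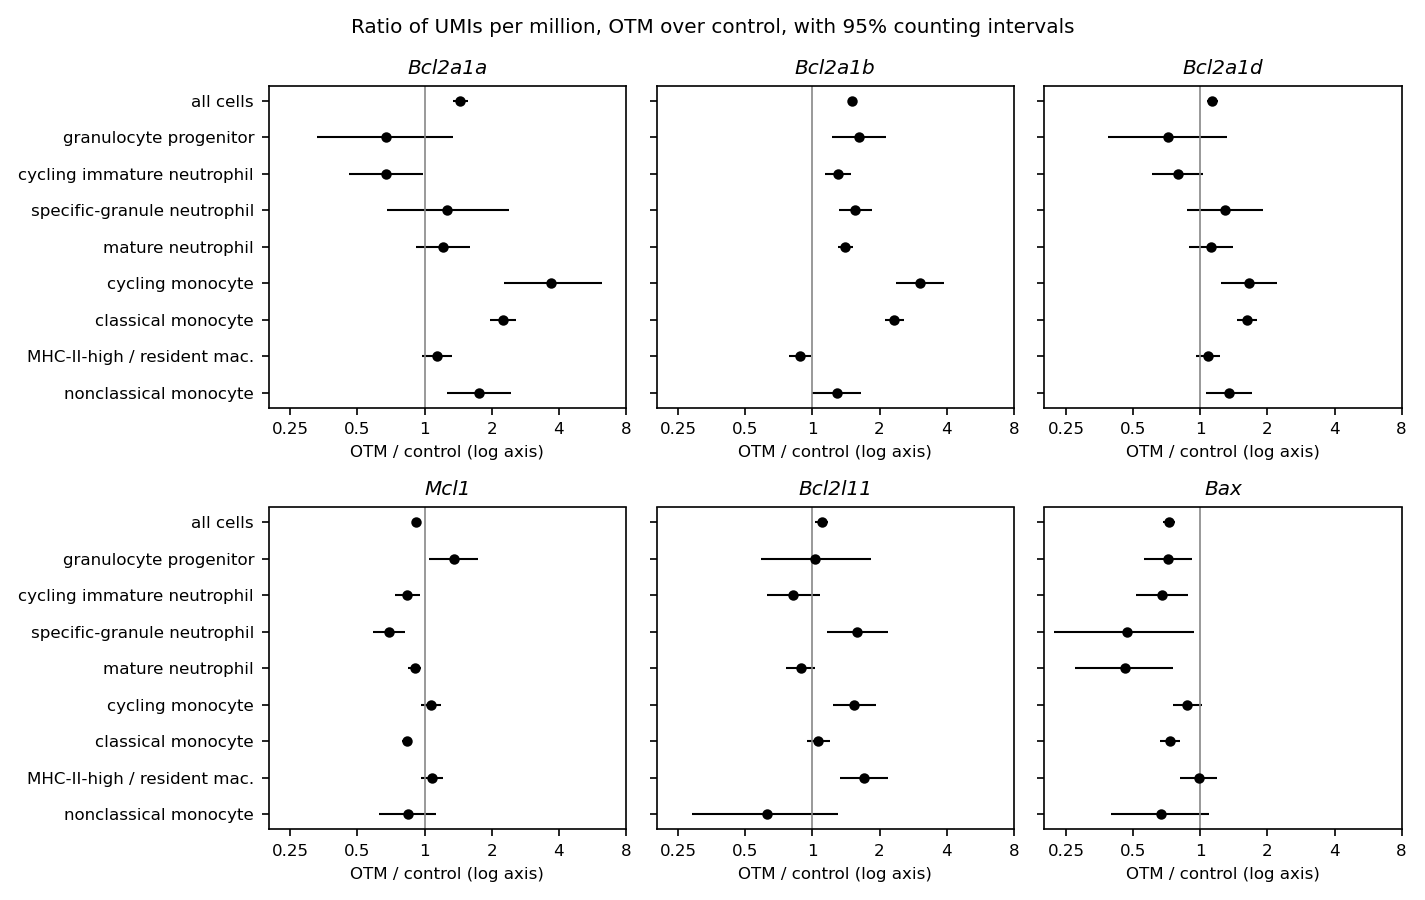
Ratio of the level in the OTM library to that in the control library (x axis, log scale) for each gene over all cells and in 8 cell groups (y axis), with 95% counting intervals and a line at 1. For Bcl2a1b the interval lay above 1 in all cells and in 6 of the 8 groups, and below 1 in MHC class II-high and resident macrophage-like cells.

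By cluster, the 3 clusters of mature neutrophil-like cells had Bcl2a1b at 487, 511 and 253 CPM in the control and at 643, 794 and 497 CPM in the OTM library. The last of these, cluster 10, led by the stefin genes Stfa2 and Stfa3, had the largest of the 3 ratios, 1.96 (1.45 to 2.71), and the other two had 1.32 (1.17 to 1.49) and 1.55 (1.37 to 1.76). Among the 4 clusters of classical monocyte-like cells, cluster 5, led by the interferon-related genes Irf7 and Ifi204 and drawn almost evenly from both libraries (176 and 179 cells), had Bcl2a1b at 116 CPM in the control and 318 CPM in OTM, a ratio of 2.74 (2.21 to 3.42). Cluster 0 had 192 and 215 CPM, a ratio of 1.12 (0.920 to 1.36) that did not exceed counting error. Cluster 7 had 308 and 455 CPM, with only 28 UMIs of the gene in its 19 control cells. Cluster 11, led by the stress genes Hspa1a and Atf3, had 66.0 and 114 CPM from 37 and 17 UMIs. Both the levels inside clusters and the shares of the clusters differed between the libraries. The ratio of 2.33 in classical monocyte-like cells holds both, and it was not taken with the cluster shares held.

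**Figure D3:**
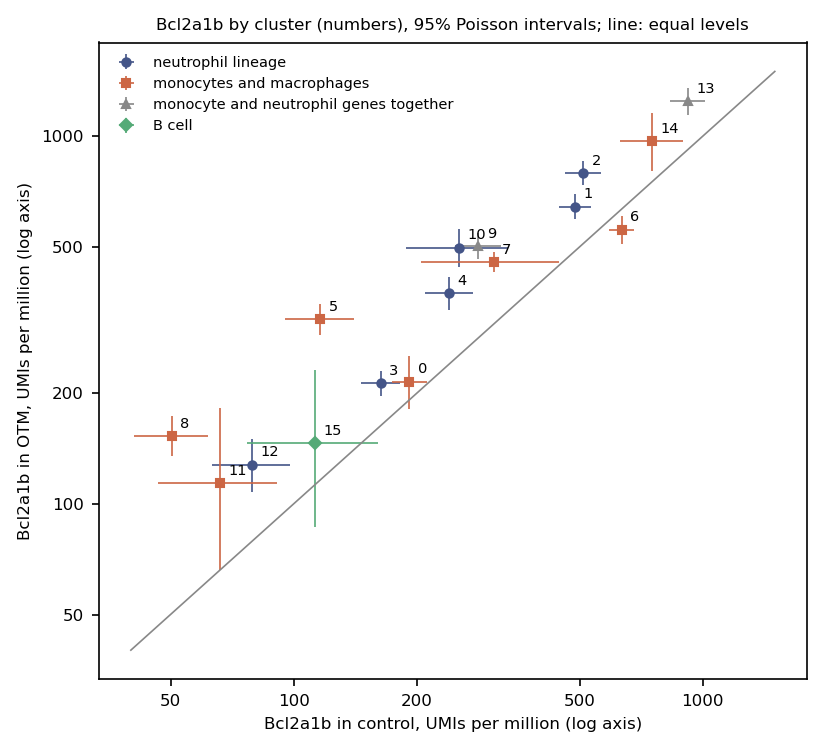
Level of Bcl2a1b in the control (x axis) and in the OTM library (y axis), in CPM on log axes with 95% Poisson intervals, for the 16 clusters with at least 10 cells of each library (numbers beside the points, circles for the neutrophil lineage, squares for monocytes and macrophages, triangles for clusters with genes of both, a diamond for B cells). The line marks equal levels, and cluster 6, the MHC class II-high and resident macrophage-like cells, is the point below it.

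Neutrophil transcripts in the classical monocyte-like cells moved with the same comparison. All 5 markers of all neutrophil stages (S100a8, S100a9, Ly6g, Wfdc21 and Lcn2) had UMIs there, and their summed level was 4944 CPM in the control and 12732 CPM in the OTM library. In mature neutrophil-like cells the same sum was 321336 and 294945 CPM. The 10 mature neutrophil markers summed to 1228 and 2649 CPM in classical monocyte-like cells and to 55154 and 69834 CPM in mature neutrophil-like cells. Bcl2a1a, whose level in mature neutrophil-like OTM cells was 52.7 CPM, was at 182 CPM in classical monocyte-like OTM cells. The sum of the 5 markers was also higher in the other groups, 9188 and 26477 CPM in cycling monocyte-like and 17058 and 38960 CPM in MHC class II-high and resident macrophage-like cells, the group in which Bcl2a1b was lower. The part of neutrophil RNA in the differences of Bcl2a1b was not tested.

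Bcl2a1a was at 79.3 CPM in all control and 115 CPM in all OTM cells, a ratio of 1.45 (1.35 to 1.56). It was low in every neutrophil stage, between 21.0 and 43.7 CPM in the control and between 14.1 and 52.7 CPM in the OTM library. Classical monocyte-like cells had 80.8 and 182 CPM, MHC class II-high and resident macrophage-like cells 303 and 344 CPM, and nonclassical monocyte-like cells 394 and 692 CPM. Both libraries thus had the highest levels in the last group and the next highest in the MHC class II-high group, with overlapping intervals in the control (305 to 500 and 273 to 336). The ratio was 2.25 in classical monocyte-like (1.97 to 2.58), 3.69 in cycling monocyte-like (2.27 to 6.24) and 1.76 in nonclassical monocyte-like cells (1.27 to 2.45). Of the classical clusters with at least 50 cells of each library, cluster 0 had a ratio of 1.55 (1.21 to 1.99) and cluster 5 of 2.30 (1.76 to 3.04). For mature neutrophil-like cells it was 1.21 (0.912 to 1.603), and in cycling immature neutrophil-like cells the level was 1.48-fold lower in OTM (1.01 to 2.18), from 60 and 56 UMIs.

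Bcl2a1d had the smallest difference of the 3 copies over all cells, 151 CPM in the control and 171 CPM in OTM, a ratio of 1.13 (1.07 to 1.20). Its levels were 70.6 and 78.7 CPM in mature neutrophil-like, 154 and 248 CPM in classical monocyte-like, 489 and 530 CPM in MHC class II-high and resident macrophage-like, and 846 and 1137 CPM in nonclassical monocyte-like cells. The order of these 4 groups was the same in both libraries. Only the monocyte groups had ratios above 1 beyond counting error, 1.61 in classical (1.46 to 1.79), 1.65 in cycling (1.24 to 2.22) and 1.34 in nonclassical monocyte-like cells (1.06 to 1.70). With the 3 copies summed, the ratio was 1.38 over all cells (1.34 to 1.42), 1.36 in mature neutrophil-like (1.26 to 1.46), 2.03 in classical monocyte-like (1.91 to 2.16) and 1.00 in MHC class II-high and resident macrophage-like cells (0.934 to 1.08). Clusters 0 and 5 had summed ratios of 1.16 (1.03 to 1.31) and 2.32 (2.04 to 2.65). The classical ratios of Bcl2a1a, Bcl2a1d and the sum were also not taken with the cluster shares held.

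The makeup of the Bcl2a1 UMIs differed between the lineages in both libraries. Bcl2a1b made up 80.5% (78.1% to 82.8%) of the UMIs of the 3 copies in mature neutrophil-like control cells and 83.5% (81.8% to 85.1%) in the OTM cells. In classical monocyte-like cells it made up 39.99% (37.4% to 42.6%) and 45.9% (44.3% to 47.6%), and in nonclassical monocyte-like cells 37.8% (32.6% to 43.2%) and 34.6% (29.7% to 39.8%). As far as the ends of the transcripts are alike in all cells, these shares can be compared between groups, although not between copies. Bcl2a1d had the opposite order, with 12.02% and 9.88% in mature neutrophil-like and 42.5% and 40.7% in nonclassical monocyte-like cells. Within the neutrophil lineage of the control library, the share of Bcl2a1b was 62.9% (54.0% to 71.1%) in granulocyte progenitor-like, 66.6% (62.3% to 70.7%) in cycling immature and 76.1% (70.8% to 80.9%) in specific-granule stage cells, the first 2 below mature cells beyond counting error. In the OTM library these shares were 79.7% (73.1% to 85.3%), 77.6% (74.5% to 80.4%) and 79.5% (75.4% to 83.2%), and of these only that of cycling immature cells did not overlap that of mature cells. In the MHC class II-high and resident macrophage-like cells the share was lower in OTM, 38.9% (36.3% to 41.6%) against 44.5% (42.1% to 46.9%).

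**Figure D4:**
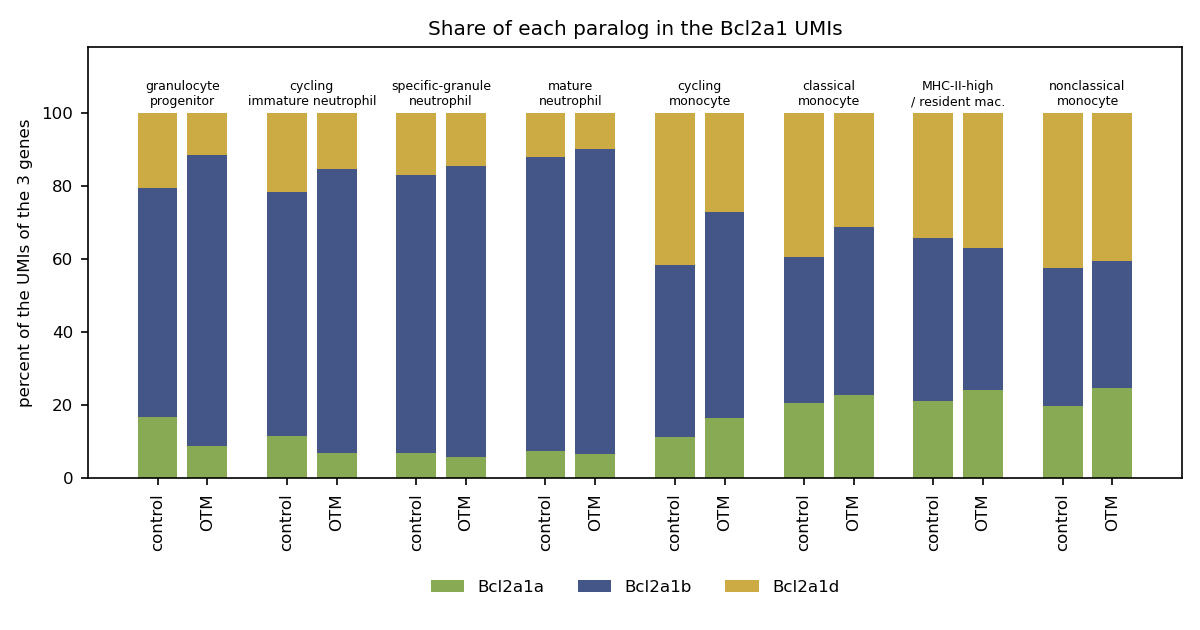
Share of each copy in the UMIs of Bcl2a1a (green), Bcl2a1b (blue) and Bcl2a1d (yellow), in percent (y axis), in 8 cell groups of the control and the OTM library (x axis). Bcl2a1b took 80.5% and 83.5% in mature neutrophil-like cells, and 39.99% and 45.9% in classical monocyte-like cells.

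Mcl1 (ENSMUSG00000038612, chr3:95658788-95663176, plus strand) encodes the other short-lived anti-apoptotic protein and was slightly lower in OTM over all cells, 523 CPM in the control and 478 CPM in OTM (1.09-fold lower, 1.06 to 1.13). Like Bcl2a1b, it was higher from stage to stage of the neutrophil lineage, with 104, 208, 385 and 826 CPM in the control and 140, 175, 268 and 746 CPM in the OTM library, where the first 2 overlapped (119 to 164 and 160 to 190). Classical monocyte-like cells had 701 and 585 CPM, MHC class II-high and resident macrophage-like cells 554 and 597 CPM, and nonclassical monocyte-like cells 723 and 607 CPM. Mature neutrophil-like cells had the highest level in both libraries, with an interval that overlapped that of nonclassical monocyte-like cells in the control (786 to 867 and 601 to 863) and in OTM (713 to 781 and 481 to 756). In OTM Mcl1 was 1.44-fold lower in specific-granule stage (1.22 to 1.70), 1.19-fold lower in cycling immature neutrophil-like (1.05 to 1.36), 1.20-fold lower in classical monocyte-like (1.13 to 1.27) and 1.11-fold lower in mature neutrophil-like cells (1.03 to 1.18). In granulocyte progenitor-like cells it was 1.35-fold higher (1.05 to 1.74). The small differences over all cells and in mature neutrophil-like cells turned to slightly higher levels in OTM under another scaling (log2 ratios of 0.10 and 0.06 under TMM) and with a stricter filter on barcodes (0.03 and 0.13).

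Bcl2l11 (ENSMUSG00000027381, chr2:128126038-128162547, plus strand), which encodes the pro-apoptotic BIM, was at 109 CPM in all control and 120 CPM in all OTM cells, a ratio of 1.10 (1.03 to 1.18). Among the neutrophil stages it was highest in the last, with 24.8, 48.5, 75.3 and 173 CPM in the control and 25.6, 39.9, 120 and 154 CPM in the OTM library. The stages were in the same order in both libraries. Neighbours overlapped in their intervals between cycling immature and specific-granule stage cells of the control (39.6 to 58.9 and 58.6 to 95.2). In the OTM library they overlapped between progenitors and cycling immature cells (17.1 to 36.7 and 32.9 to 47.8) and between specific-granule stage and mature cells (98.6 to 144 and 139 to 170). Its ratio was 1.59 in specific-granule stage cells (1.17 to 2.18), from 69 and 113 UMIs, and 1.70 in MHC class II-high and resident macrophage-like cells (1.33 to 2.18), where the level was 99.0 CPM in the control and 168 CPM in OTM. Cycling monocyte-like cells had 80.1 and 123 CPM (1.54, 1.24 to 1.92). For mature neutrophil-like (0.887, 0.764 to 1.03) and classical monocyte-like cells (1.06, 0.945 to 1.19) the difference was within counting error, and in the former its sign turned under 2 of 13 alternatives. With finer clusters, at a resolution of 1.6, the ratio in specific-granule stage cells was 1.00.

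Bax (ENSMUSG00000003873, chr7:45461697-45466898, minus strand), the effector, had the opposite course along the neutrophil stages, with 146, 56.6, 29.4 and 23.9 CPM in the control and 105, 38.1, 13.8 and 10.9 CPM in the OTM library, the last 2 stages overlapping in both. Monocytes and macrophages had 214 and 157 CPM (classical), 217 and 190 CPM (cycling), 208 and 204 CPM (MHC class II-high and resident) and 299.8 and 199.8 CPM (nonclassical). All 4 groups of monocytes and macrophages were above every neutrophil stage in both libraries. Over all cells Bax was 1.38-fold lower in OTM (1.29 to 1.47), with 143 and 103 CPM. It was 1.37-fold lower in classical monocyte-like (1.23 to 1.52), 1.39-fold lower in granulocyte progenitor-like (1.09 to 1.78) and 1.48-fold lower in cycling immature neutrophil-like cells (1.14 to 1.94). Mature neutrophil-like cells had a level 2.18-fold lower (1.33 to 3.64), from 47 and 27 UMIs, and specific-granule stage cells one 2.14-fold lower (1.07 to 4.52), from 27 and 13 UMIs. The difference in MHC class II-high and resident macrophage-like cells was within counting error (0.982, 0.808 to 1.19), and its sign turned under 4 of 10 alternatives. Bax shares bases with Gm45808 on the same strand, and reads there cannot be told apart.

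The numbers of members past 1.5-fold are given beside the share of all genes that passed it. Over all cells, 1 of the 6 genes, Bcl2a1b, was at least 1.5-fold higher, as were 4.23% of the 6477 genes with at least 200 UMIs, and 0 were at least 1.5-fold lower, as were 13.1%. The median log2 ratio of all these genes was -0.15 and that of the 6 members 0.16. A scaling that centres most genes (TMM) moves every log2 ratio up by 0.23 over all cells, 0.21 in mature neutrophil-like, 0.16 in specific-granule stage, 0.14 in classical monocyte-like and 0.13 in MHC class II-high and resident macrophage-like cells. In classical monocyte-like cells 3 of the 6 members, the near-identical Bcl2a1 copies, were past 1.5-fold higher, with a background of 7.42% of 3327 genes. Lower there were 0 members, against 10.1%. Among mature neutrophil-like cells 0 members were higher (background 10.4% of 1380 genes) and 1, Bax, was lower (background 11.3%), and Bax was the member with fewer than 200 UMIs. In specific-granule stage cells Bcl2a1b and Bcl2l11 were higher (background 10.9% of 679 genes) and Bax was lower (background 6.33%), but only Bcl2a1b and Mcl1 had 200 UMIs there. In MHC class II-high and resident macrophage-like cells Bcl2l11 was higher (background 12.5% of 1256 genes) and 0 members were lower (background 7.72%). Since the set was chosen on the difference over all cells, nothing is read from its counts there, and the other counts come from the same libraries.

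The share of cells with a UMI depends on depth, so each cell was thinned to 1500 UMIs, which no kept cell lay under. Bcl2a1b was then found in 28.8% (27.1% to 30.5%) of all control and 40.1% (37.9% to 42.2%) of all OTM cells, against 48.3% and 70.1% without thinning. In mature neutrophil-like cells the thinned shares were 40.2% (36.5% to 44.0%) and 48.5% (44.4% to 52.7%), and in classical monocyte-like cells 17.8% (15.3% to 20.6%) and 35.9% (32.0% to 39.8%). The intervals of the libraries did not overlap in either group. Erythroid-like cells, thinned alike, had a UMI of Bcl2a1b in 0 of 11 control (0% to 28.5%) and 1 of 5 OTM cells (0.505% to 71.6%), at median depths of 6926 and 11655 UMIs before thinning. Mcl1 was found in 68.3% and 66.1% of mature neutrophil-like cells and in 64.7% (61.4% to 67.9%) and 57.7% (53.7% to 61.7%) of classical monocyte-like cells. Bax was found in 3.25% (2.05% to 4.89%) and 1.74% (0.837% to 3.18%) of mature neutrophil-like cells and in 27.3% and 21.1% of classical monocyte-like cells.

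Other genes of the apoptosis pathway were counted by list, each gene with at least 50 UMIs over both libraries, and the lists were chosen with earlier results of these data known. Of all genes with 50 UMIs, 4.58% were at least 1.5-fold higher and 18.4% lower over all cells, 9.0% and 18.4% in mature neutrophil-like, 10.9% and 13.7% in specific-granule stage, 7.77% and 16.0% in classical monocyte-like, and 10.6% and 13.8% in MHC class II-high and resident macrophage-like cells. Among the 7 anti-apoptotic BCL2 family genes that had 50 UMIs over all cells, Bcl2a1b was at least 1.5-fold higher in OTM and Bcl2, the founding member, was 1.88-fold lower, with 99 and 60 UMIs. Bcl2l1, which encodes BCL-XL, had 8.35 CPM in all control and 12.3 CPM in all OTM cells (1.48, 1.17 to 1.86). Its level in mature neutrophil-like cells was 18.8 and 36.5 CPM (1.94, 1.31 to 2.93). Of 5 BH3-only genes 0 passed 1.5-fold over all cells, and Pmaip1, which encodes NOXA, was lower in mature neutrophil-like cells (17.3 and 9.73 CPM) from 34 and 24 UMIs. Bid, which links death receptors to mitochondria, was lower in classical monocyte-like cells (0.578, 0.336 to 0.980), from 37 and 26 UMIs. Bak1, the other effector, was past 1.5-fold higher in 2 groups, with 22.5 and 40.6 CPM in classical monocyte-like cells (1.80, 1.38 to 2.37) and 20.8 and 38.2 CPM in MHC class II-high and resident macrophage-like cells (1.84, 1.07 to 3.20). Over all cells it had 20.7 and 29.8 CPM (1.44, 1.24 to 1.67), and in mature neutrophil-like cells 9.14 and 8.92 CPM from 18 and 22 UMIs. Of 13 caspase, apoptosome and inhibitor genes, 1 was higher over all cells (Casp6, 1.53) and 3 were lower (Fadd 0.664, from 49 and 37 UMIs, Xiap 0.637 and Birc2 0.603). Cycs, which encodes cytochrome c, was 2.06-fold lower in mature neutrophil-like cells, at 162 CPM in the control and 78.2 CPM in OTM. Xiap (0.594) and Birc2 (0.634), which encode inhibitor of apoptosis proteins, were also lower in classical monocyte-like cells, and Casp6 was higher in MHC class II-high and resident macrophage-like cells (1.84).

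Genes of the NF-kB response, to which A1 is known to belong, had a median above that of all genes in each of the 5 comparisons. Over all cells 7 of 18 were at least 1.5-fold higher and 0 lower, with a median log2 ratio of 0.51 against -0.20 over all 9409 genes with 50 UMIs. In mature neutrophil-like cells 8 of 18 were higher and 0 lower (median 0.48, all genes -0.12), led by Nfkbib (2.75), Icam1 (2.32), Tnf (2.23), Il1b (1.94) and Nfkbia (1.84), with Sod2 (1.57), Traf1 (1.55) and Nfkb2 (1.51). Classical monocyte-like cells had 9 of 18 higher and 0 lower (0.57, all genes -0.11), Il1b (3.94), Tnf (3.79), Icam1 (2.07), Cxcl2 (2.03), Nfkbib (1.83), Ier3 (1.71), Nfkbiz (1.64), Ptgs2 (1.59) and Relb (1.54). Among MHC class II-high and resident macrophage-like cells 5 of 18 were higher and 0 lower (0.49, all genes -0.08). In specific-granule stage cells 3 of 15 were higher (Nfkbib 2.79, Sod2 1.79 and Tnf 1.62) and 2 lower (Tnfaip2 0.485 and Ptgs2 0.388), with a median of 0.25 (all genes -0.01). Il1b, the inflammatory cytokine, had 1348 CPM in all control and 4090 CPM in all OTM cells, Tnf 39.9 and 94.7 CPM, the chemokine gene Cxcl2 9109 and 15778 CPM, and the inhibitor gene Nfkbib 79.5 and 139 CPM. Other members of the list past 1.5-fold over all cells were Icam1 (1.69), Ier3 (1.64) and Sod2 (1.57). Bcl2a1b itself was not higher in MHC class II-high and resident macrophage-like cells, where Il1b was 2.76-fold, Ier3 2.33-fold, Cxcl2 1.98-fold, Tnf 1.86-fold and Ptgs2 1.51-fold higher. Nothing is read from this list about the control of Bcl2a1b.

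The list of immediate early and dissociation stress genes moved the other way. Of 13 genes 6 were at least 1.5-fold lower in OTM over all cells and 0 higher (median log2 ratio -0.47), Fos with 783 and 471 CPM, Egr1 with 211 and 110 CPM, and Fosb (0.421), Atf3 (0.402), Hspa1a (0.450) and Hspa1b (0.184). In mature neutrophil-like cells 4 of 11 were lower (Fos, Fosb, Egr1 and Atf3), in specific-granule stage cells 6 of 10 (Fos, Fosb, Jun, Egr1, Zfp36 and Dusp1), in classical monocyte-like cells 4 of 13 (Fosb, Atf3, Hspa1a and Hspa1b) and in MHC class II-high and resident macrophage-like cells 4 of 12 (Fosb, Jun, Egr1 and Atf3), and 0 were higher in each of these. Mcl1 and Bax were lower along with this list, from genes that tissue digestion induces, over all cells and in mature neutrophil-like, specific-granule stage and classical monocyte-like cells. In MHC class II-high and resident macrophage-like cells Mcl1 (1.08, 0.960 to 1.21) and Bax (0.982, 0.808 to 1.19) were within counting error. The Mcl1 differences over all cells and in mature neutrophil-like cells also turned under TMM scaling. The part of this list in the differences of Mcl1 and Bax was not tested. Of 10 p53 targets, 1 was higher over all cells, Mdm2 (74.7 and 116 CPM), and Bax itself is on that list. Cdkn1a, the best known of them, was level with 489 and 488 CPM. Mdm2 was higher in specific-granule stage (1.84) and classical monocyte-like cells (1.91) too, while among the 7 p53 targets of mature neutrophil-like cells Sesn2 was higher (1.90) and Bax and Pmaip1 were lower. Of 8 receptors of survival cytokines 0 passed 1.5-fold over all cells, and Csf3r, the receptor of the neutrophil factor G-CSF, had 105 and 89.4 CPM. Within cell groups, Tnfrsf1b, which encodes a TNF receptor, was higher in mature neutrophil-like (29.5 and 61.2 CPM) and MHC class II-high and resident macrophage-like cells (1.55), where Ifngr1 was higher too (1.53), and Csf2ra (1.80) and Tnfrsf1a (1.57) were higher in specific-granule stage cells.

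**Figure D5:**
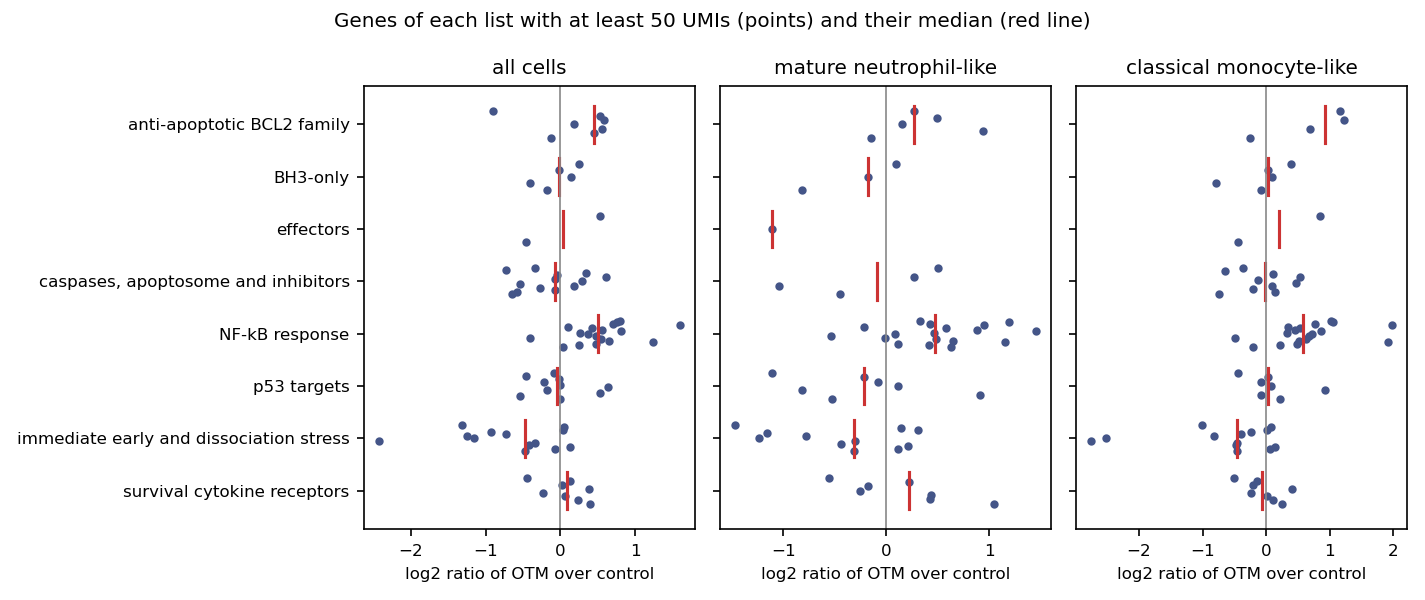
Log2 ratio of OTM over control (x axis) of each gene with at least 50 UMIs (points) in 8 gene lists (y axis), over all cells, in mature neutrophil-like and in classical monocyte-like cells, with the median of each list in red. The medians of the NF-kB response list lay above 0 in all 3 panels, at 0.51, 0.48 and 0.57, and those of the immediate early and dissociation stress list lay below 0.

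Across the 28 sums of a cluster in a library with at least 30 cells, the levels of Bcl2a1a and Bcl2a1d followed each other most among the members, with Pearson's r = 0.89 and Spearman's rho = 0.89 of log2(CPM + 10). Bcl2a1b had r = 0.69 with Bcl2a1a, r = 0.63 with Bcl2a1d, r = 0.56 with Mcl1, r = 0.52 with Bcl2l11 and r = -0.35 with Bax. Mcl1 and Bcl2l11 had r = 0.71 and rho = 0.50. The points share 2 libraries and related clusters, so these values are descriptions. The points include clusters 9 and 13, with monocyte and neutrophil genes together, and the values were not taken without these clusters. Cluster 13, with Bcl2a1b at 920 CPM in the control and 1245 CPM in the OTM library, has Fcgr4 among its leading genes. Of 6471 other genes, the 5 most like Bcl2a1b were Fcgr4 (r = 0.91), an Fc receptor gene, Dusp16 (0.85), C5ar1 (0.82), the receptor gene of complement C5a, Olr1 (0.82) and Lpcat2 (0.82). Those most like Bcl2a1a were Cflar (0.87), which encodes an inhibitor of caspase 8, Apoe (0.86), Rcan1 (0.86), AF251705 (0.85) and Trf (0.85), and those most like Bcl2a1d were Tcf7l2 (0.88), Sqstm1 (0.88), Tnfrsf12a (0.88), Rcan1 (0.86) and Abi3 (0.86). Coq10b, Por, Tnfaip3, Tyrobp and Hacd4 came nearest to Mcl1, all with r = 0.94. Bcl2l11 was nearest to Ell2 (0.91), Tpm4 (0.87), Nfkb1 (0.86), Skil (0.85) and Tmem243 (0.85). Bax was nearest to Fkbp1a (0.98), to the ribosomal protein genes Rps14 (0.98), Rpl27a (0.97) and Rplp2 (0.97), and to Gnb2l1 (0.97). By Spearman's rho 4 of the 5 genes nearest to Bcl2a1b were the same, 0 of those nearest to Bax and 1 of 5 for each other member.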

How the data were processed

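Single cells were sorted as F4/80+CD11b+ from enzymatically digested alveolar bone, 1 library per condition. UMI counts per gene and cell barcode, which the authors deposited as 1 raw table per library, were made with Cell Ranger 3.0.0 against mm10, and Seurat 3.0.0 is named beside it in the submitters' processing notes. For both groups the study states more cells after filtering than these tables have barcodes (2863 and 2058), a difference whose cause was not tested. The release of the gene annotation is not given in the sources used here.

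Barcodes with at least 200 genes, at least 1000 UMIs and at most 5% mitochondrial UMIs were kept. The rule of the methods, read literally as 200 genes per 1000 UMIs, kept 2444 and 1255 barcodes and was run as an alternative. Cells of both libraries were clustered together (2000 variable genes without BCL2 family, mitochondrial, ribosomal protein and hemoglobin genes, 20 principal components, 20 neighbours, Leiden resolution 1.0, leidenalg 0.10.2, scikit-learn 1.9.0) and named from marker lists. Doublets called by Scrublet (scanpy 1.11.5), 3 in the control and 137 in the OTM library, were kept and removed as an alternative.

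Levels are UMIs of a gene per 1000000 UMIs of a group (CPM), with exact Poisson intervals, and ratios have exact conditional binomial intervals (scipy 1.17.1), all at 95%. Log2 ratios across all genes were taken after adding 0.5 UMIs. With 1 library per condition no test was made and no p-value is given. Shares of cells have Clopper-Pearson intervals. TMM factors (edgeR 4.0.16) served as another scaling. Intervals were checked on simulated Poisson counts of the sums, drawn without the uneven spread of UMIs over cells. That check can show only that the intervals were computed as meant, not that they hold for these cells.

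The 6 genes were named by symbol, and other genes where they lay past 1.5-fold within a list with at least 50 UMIs over both libraries, or were among the 5 with the most similar levels. Members and lists were chosen with earlier results of these data known. Sequences are from GENCODE vM21 and RefSeq records on GRCm38. Differences between libraries can come from the mice, the sort or the preparation as well as from the force, and cannot be told apart.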

Additional observations from a re-analysis of the deposited data

Results flagged for a closer look

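For 3 of the 6 genes the difference between OTM and control had opposite directions in 2 cell groups of at least 50 cells in each library, with counting intervals that did not include equal levels in either group. With 1 library per condition the difference between the groups was not tested. Bcl2a1a had a log2 ratio of -0.57 (-1.12 to -0.02) in cycling immature neutrophil-like cells, from 60 control and 56 OTM UMIs. In cycling monocyte-like cells it had 1.88, from 22 control and 74 OTM UMIs. Bcl2a1b had -0.19 in MHC class II-high and resident macrophage-like cells and 1.5995 in cycling monocyte-like cells, but with TMM scaling the former was -0.06 and within counting error. Mcl1 had -0.52 in specific-granule stage cells and 0.43 in granulocyte progenitor-like cells. The values of the cycling groups and of granulocyte progenitor-like cells were not recomputed with TMM scaling or any other alternative.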

How the results depend on the processing

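The 30 ratios of OTM over control (6 genes over all cells and in 4 cell groups) were recomputed under up to 14 of 16 alternatives, and 326 of 360 values stayed inside the counting interval of the reported ratio, 345 with its sign. For Bcl2a1b, all 10 values in specific-granule stage cells did. Its log2 ratio moved outside over all cells to 0.81 with TMM scaling and to 0.46 with the clusters held at their control shares. In mature neutrophil-like cells it moved outside to 0.70 with TMM scaling. In classical monocyte-like cells it moved outside to 1.39 with each library clustered alone and to 0.92 when clustered without marker genes. There it also moved outside to 1.45 without clusters drawn over 80% from 1 library, an alternative chosen after seeing the data. That alternative drops clusters 0, 7 and 11 and leaves cluster 5 alone, so it repeats the ratio of that cluster. Cluster shares were held over all cells only, and their part in the classical monocyte-like ratio was not tested. In MHC class II-high and resident macrophage-like cells the log2 ratio of Bcl2a1b moved outside to -0.37 with no filter on barcodes. With TMM scaling (-0.06) and with totals without genes over 1% of UMIs (-0.13) it was lower by less than counting error. The cause was not tested. The ratio of Bcl2a1b ranged from 1.38 to 1.75 over all cells, from 1.32 to 1.62 in mature neutrophil-like, from 1.90 to 2.74 in classical monocyte-like and from 0.773 to 0.961 in MHC class II-high and resident macrophage-like cells. No paired analysis was possible because each condition has 1 library, and for the same reason no library could be left out. Depth limits Bax in mature neutrophil-like cells, with 47 and 27 UMIs, and all values of nonclassical monocyte-like cells.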
